A study of Eohaustorius estuarius with 16 samples.

Results

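On 4 of the 16 arrays of this experiment one abundant transcript, contig_766, gave no signal above background, and on the other 12 it was among the brighter transcripts. The 16 arrays were sorted, chosen by the measured signal of this contig, into 4 that lacked its signal and 12 that had it. An array was called lacking when the contig's log2 signal, relative to the array's 75th percentile, lay below -4. The arrays that had the signal all lay above -1. The 4 lacking arrays were cyfluthrin replicates 1 and 3 and control replicates 6 and 7. The classes therefore come from a measured value and not from a label of the study, and the class difference of contig_766 itself is a description with no test.

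The arrays measured total RNA from whole bodies of Eohaustorius estuarius, a burrowing estuarine amphipod used in sediment toxicity tests. Cyfluthrin samples came from animals kept for 10 days in sediment spiked with the pyrethroid cyfluthrin at a nominal 1.6 µg/kg, and control samples from animals kept for 10 days in solvent-spiked sediment. Each group had 8 arrays, labelled with Cy3 and hybridised by laboratory B from extracts that a single laboratory had made for 6 laboratories. The arrays of the other laboratories were not analysed here. The design text counts 8 exposed and 8 control amphipods but does not say which of them shared a container, and it gives no age or sex. A p-value here thus covers the spread between extracts, which may in part be technical.

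Pyrethroids hold voltage-gated sodium channels of nerve cells open. The series was made to compare microarray data between laboratories. In whole-body RNA a transcript's signal is summed over every tissue, so fewer cells that make it and less RNA in each cell cannot be told apart. The arrays name assembled transcript fragments, called contigs, by number only. A transcript can be split over several contigs of an assembly, and the files pair no sequence or protein with a contig. Overlap in sequence between contigs was not tested, and no gene function is given below.

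The signal of contig_766 was read by 2 spots on every array. On the lacking arrays its log2 signal was -7.01 in cyfluthrin replicate 1 and -6.14 in cyfluthrin replicate 3, and -7.04 in control replicate 6 and -5.73 in control replicate 7. Neither spot was well above background on any of these 4 arrays. Only 3.08% to 7.95% of the 8507 contigs were dimmer there, so the spots read like those of the dimmest contigs on the array.

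On the 6 cyfluthrin arrays that had the signal, the log2 signal of contig_766 ran from -0.06 through a median of 1.05 to 2.74. On the 6 control arrays that had it, the signal ran from 1.08 through a median of 2.51 to 3.64. It was brighter than 74.0% to 97.8% of contigs on these 12 arrays, and the spots of an array differed by at most 0.22 log2 units. The array just inside the lacking class was control replicate 7 at -5.73, and the one just inside the having class was cyfluthrin replicate 8 at -0.06, so no array lay in the 5.67 log2 units between them. The spots of the lacking arrays give no resolved level. Each lacking array was therefore set to the higher of the contig's own signal and the array's dimmest signal well above background. The mean of the having arrays was then 146-fold above the lacking arrays. This size holds for the processed signal only: with normexp background correction the log2 difference was -5.09, against -8.26 as measured.

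**Figure D1:**
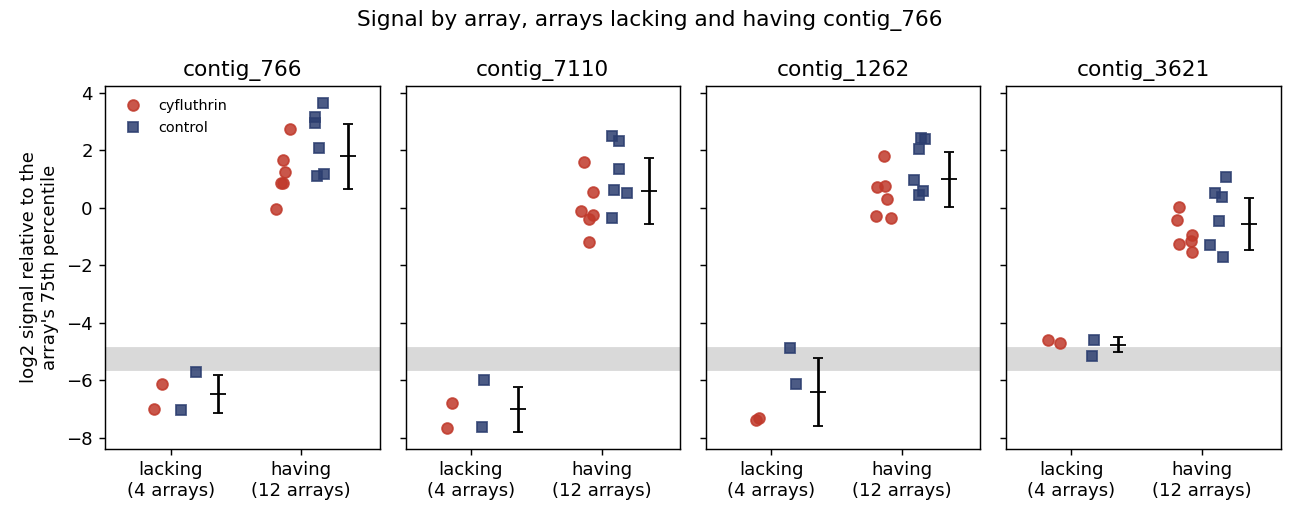
Log2 signal relative to the array's 75th percentile (y axis) of contig_766 and of the 3 contigs that followed it, for the 4 lacking arrays (left) and the 12 having arrays (right) in each panel; red circles are cyfluthrin arrays, blue squares control arrays, black bars mean and SD of a class, and the grey band spans the 16 arrays' dimmest contig signals well above background. In each panel every lacking array lies below every having array, and contig_3621 alone stays within or above the band on all 4 lacking arrays.

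The classes were also set apart by 3 other contigs of 7927 tested, contig_7110, contig_1262 and contig_3621, of which contig_3621 was still seen on the lacking arrays. These 3 (0.0378% of those tested) were lower on the lacking arrays at an adjusted p under 0.05 in limma with treatment as a covariate, and 0 contigs (0%) were higher. Without adjustment 374 contigs (4.72%) were lower and 132 (1.67%) were higher at p under 0.05. Since the classes were set by a measured contig picked with its values known, the threshold serves here to count contigs that follow it and not as evidence for the classes.

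The closest follower was contig_7110, read by 1 spot per array. On the lacking arrays its log2 signal was -7.66 and -6.78 in cyfluthrin replicates 1 and 3, and -7.63 and -6.00 in control replicates 6 and 7. On the having arrays it ran from -1.19 through a median of -0.19 to 1.58 with cyfluthrin, and from -0.37 through 0.98 to 2.50 in control. The spot was not well above background on any lacking array and was so on all 12 having arrays. The having arrays stood 64.0-fold above the lacking ones in the processed signal, with the lacking arrays set as for contig_766. The classes were 4.80 log2 units apart at their nearest arrays.

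On the lacking arrays contig_1262, with 2 spots, had log2 signals of -7.39 and -7.32 in cyfluthrin replicates 1 and 3, and -4.88 and -6.12 in control replicates 6 and 7. On the having arrays it ran from -0.34 through a median of 0.51 to 1.78 with cyfluthrin, and from 0.44 through 1.51 to 2.41 in control. One of its spots passed the background flag on 1 lacking array, control replicate 6, and none did on the other 3. With 3 of the 4 lacking arrays at background, the measured log2 difference of -7.41 (SE 0.44) is not resolved there, and the nearest arrays were 4.54 log2 units apart. With normexp background correction the differences were -4.16 for contig_1262 and -4.27 for contig_7110.

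The signal of contig_3621 was reduced on the lacking arrays but still seen. Its log2 signal was -4.62 and -4.70 in cyfluthrin replicates 1 and 3, and -5.16 and -4.59 in control replicates 6 and 7, with at least 1 of its 2 spots well above background on each. The having arrays ran from -1.53 through a median of -1.05 to 0.03 with cyfluthrin, and from -1.73 through -0.04 to 1.06 in control. The log2 difference was -4.19 (SE 0.43; -2.74 with normexp), an 18.3-fold lower level on the lacking arrays, with 2.86 log2 units between the nearest arrays. At the 3 log2 units that separate the bounds of the classes, contig_7110 and contig_1262 thus counted as all-or-none (0.0252% of 7927) and contig_3621 fell just short. That count depended on the definition and the processing: it was 1 by the bounds -4 and -1 themselves (contig_1262), 1 by background flags (contig_7110), and 0 with normexp background correction.

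Between these contigs and all others lay a wide interval. A further 3 contigs had every lacking array below every having array, which made 6 in all (0.0757%), and 0 contigs (0%) had every lacking array above. Of the 1820 choices of 4 arrays, any given choice is expected to be the lowest for a few of 7927 contigs by chance. The count of 6 with any gap is thus not by itself a result about the classes. These 3 were named after their values were seen. Of them contig_2236 stood closest, with log2 signals of -5.16 to -4.49 on the lacking arrays and -3.70 to -0.57 on the having arrays. Its nearest arrays were 0.79 log2 units apart (log2 difference -2.56, SE 0.46), and it did not pass the threshold (limma adjusted p = 0.087). For contig_5662 and contig_376 the nearest arrays were 0.02 log2 units apart, and the log2 differences were -0.47 and -0.45.

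**Figure D2:**
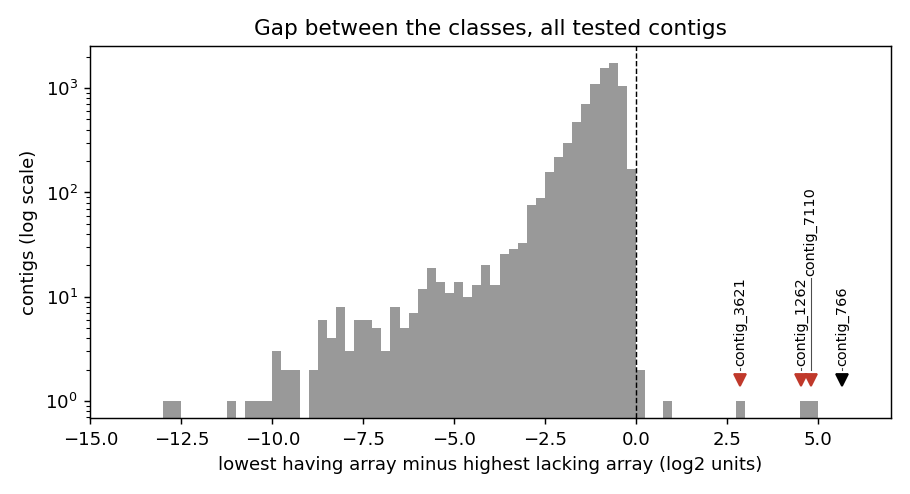
Number of tested contigs (y axis, log scale) by the gap between the classes (x axis, lowest having array minus highest lacking array, in log2 units); values right of the dashed line have no overlap, and contig_766, in black, is marked but not counted in the bars. The 3 contigs that follow contig_766 have gaps of 2.86 to 4.80, and the next contig has 0.79.

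Wide gaps were also found along other divisions of the arrays. With at least 3 arrays on each side, 10 contigs including contig_766 had a gap of over 3 log2 units, and they divided the arrays in 5 different ways. The split of contig_766 held 3 of the 10, and so did the split of contig_130, which was low on cyfluthrin replicates 4 and 7 and control replicates 4 and 5. None of those 4 arrays lacked contig_766. At a gap of over 2 log2 units, 52 contigs divided the arrays in 21 ways, and 4 of them, contig_766 included, followed the split of contig_766, while the most frequent other division held 13.

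The classes were not those of the treatment. Of the 4 lacking arrays 2 were cyfluthrin and 2 control, and of the 12 having arrays 6 were cyfluthrin and 6 control. Each slide also held 2 lacking and 6 having arrays, but both lacking arrays of slide 1 were cyfluthrin and both of slide 2 control. All 4 lacking arrays lay in row 1 of their slide, beside 4 having arrays in that row. The 8 arrays of row 2 all had the signal. Fisher's exact test (two-sided) gave p = 0.0769, with adjusted p = 0.231 over the 3 comparisons with treatment, slide and row. With 4 lacking arrays and 8 arrays in each row, no other arrangement gives a lower p. The test therefore could not pass the threshold used here, and it cannot decide whether the classes follow row.

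**Figure D3:**
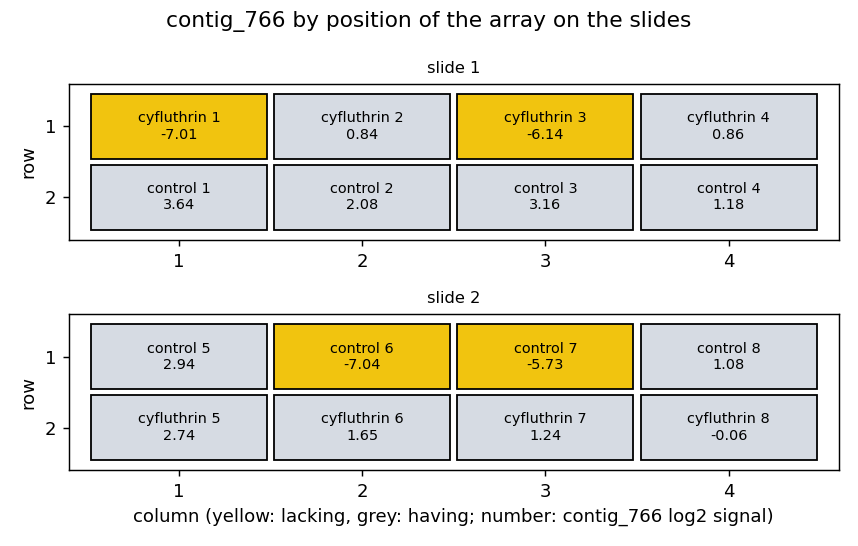
Position of the 16 arrays on the 2 slides by row and column, with each array's treatment, replicate and contig_766 log2 signal relative to the 75th percentile; yellow arrays lack the signal and grey arrays have it. The lacking arrays sit in row 1 of both slides, next to having arrays of the same row and treatment.

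Within row 1 the 4 lacking arrays could be set against 4 having arrays, with the treatments balanced on both sides. There the log2 difference was -7.14 for contig_7110, -7.20 for contig_1262 and -3.82 for contig_3621. The first 2 of these passed limma's threshold in that smaller set, and contig_3621 did not. With row as a block over all arrays, 3 contigs were lower and 0 higher, the same numbers as without it. The followers had been picked on the same 4 lacking arrays, so these row 1 and row block results were in part fixed by the choice. They are a description only.

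The 3 followers were low on the lacking arrays of both treatments. They were picked by a fit over all 16 arrays, so this was in part fixed by the choice and is a description only. For contig_7110 the log2 difference between lacking and having arrays was -7.24 among cyfluthrin arrays and -7.97 among controls. For contig_1262 the differences were -7.84 and -6.97 in the same order, and for contig_3621 -3.77 and -4.62. The sizes for contig_7110 and contig_1262 rest on readings at background and cannot be set against each other. Fitted on control arrays alone, contig_3621 did not pass limma's threshold, and on cyfluthrin arrays alone it did. With a gap of more than 1 log2 unit required, 14 contigs (0.177%) were low on both lacking arrays of the cyfluthrin group, 3 (0.0378%) on those of the control group, and 3 (0.0378%) on both. With no gap required, 1332 contigs (16.8%) were lower on the 2 lacking arrays than on the 6 having arrays of the cyfluthrin group, and 280 (3.53%) in control. On both treatments' lacking arrays 23 contigs (0.29%) were lower. Contigs above all having arrays of their treatment numbered 253 (3.19%) with cyfluthrin, 242 (3.05%) in control and 6 (0.0757%) in both. By chance any given 2 of 8 arrays are the lowest, or the highest, for some contigs. The counts of 280, 253 and 242 are therefore no result about the classes by themselves. Cyfluthrin replicate 1, a lacking array, had the lowest 10th percentile of all arrays, -6.63 log2 units relative to its 75th, against -5.92 to -4.16 on the having arrays. Both lacking cyfluthrin arrays also lay on slide 1, while the having arrays of that group lay on both slides. The part of either in the 1332 was not tested.

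No contig passed the threshold for a class difference that depended on treatment (limma interaction, 0 contigs, 0%), with 1401 (17.7%) at an unadjusted p under 0.05. Each treatment had 2 lacking arrays, which limits this comparison. Those with cyfluthrin lay on slide 1 and those of control on slide 2, while the having arrays of each treatment lay on both. The fit had no slide term, so a dependence on treatment was not separated from a difference between slides. Across all tested contigs, which are not independent replicates, the class differences in the 2 treatments had r = 0.174 and Spearman's rho = -0.212, which differ in sign. These values were not separated from slide either.

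**Figure D4:**
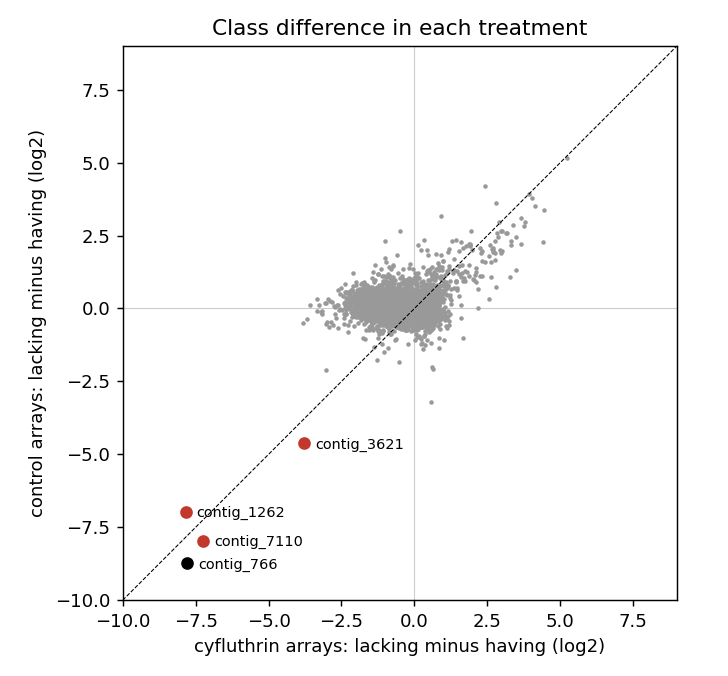
Log2 difference between lacking and having arrays for each tested contig among the cyfluthrin arrays (x axis) and among the control arrays (y axis); the dashed line marks equal differences, and contig_766 is in black with its 3 followers in red. The 4 marked contigs lie at -7.84 to -3.77 with cyfluthrin and -8.73 to -4.62 in control, apart from the cloud of other contigs.

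Differences of over 1 log2 unit were about as frequent in both directions, and those of over 2 were more often higher on the lacking arrays. The log2 difference was below -1 for 115 contigs (1.45%) and above 1 for 119 (1.5%), and it was below -2 for 6 (0.0757%) and above 2 for 47 (0.593%). None of those above lacked overlap. The log2 difference was above 3 for 12 contigs (0.151%), and it was below -3 for 3 (0.0378%), the followers. For 11 of the 12, the 4 lowest arrays were those low for contig_130, all of them having arrays. On contig_130 itself the lacking arrays lay between 3.90 and 6.96, and its 4 low arrays between -3.60 and -2.76. With these 4 arrays set aside, the median log2 difference of the 12 was 1.57 against 8 having arrays, in place of 3.38 against 12. As the arrays set aside were the lowest for 11 of the 12, a smaller difference was fixed in advance and is a description only. The median log2 difference over all 7927 contigs was -0.09, with quartiles of -0.29 and 0.05.

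The 4 contigs also varied together among the 12 arrays that had the signal. Over those arrays contig_766 correlated with contig_7110 at r = 0.964 (rho = 0.951), with contig_1262 at r = 0.959 (rho = 0.902) and with contig_3621 at r = 0.953 (rho = 0.916). For the 6 pairs among the 4 contigs, r ran from 0.915 to 0.964 and rho from 0.860 to 0.951, given with no test. Without the 2 arrays farthest from the median, r ran from 0.848 to 0.952. Within treatments, the pairs with contig_766 had r of 0.899 to 0.983 over the 6 cyfluthrin arrays and 0.928 to 0.995 over the 6 control arrays. The contigs were named partly for their correlation with contig_766 over all 16 arrays, so these values only describe them.

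The difference in log2 signal between contig_766 and contig_7110 was 1.19 ± 0.31 over the having arrays (SD, n = 12), while contig_766 itself had an SD of 1.13. The slope on contig_766 was 0.98 for contig_7110, 0.82 for contig_1262 and 0.76 for contig_3621. These differences are between readings of separate probes, and give no ratio of transcript amounts.

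**Figure D5:**
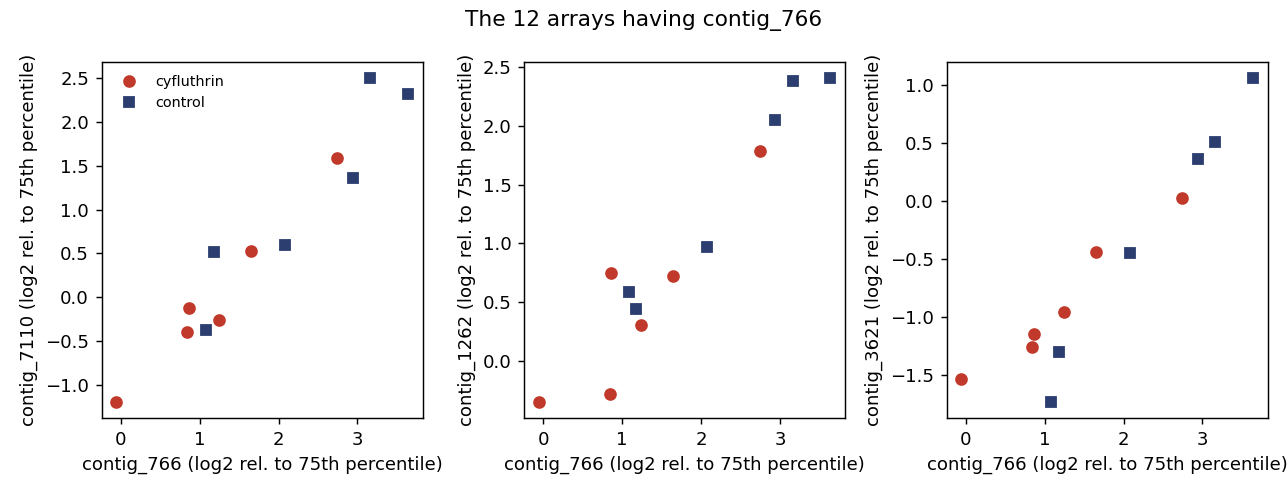
Log2 signal of each following contig (y axis) against that of contig_766 (x axis), both relative to the array's 75th percentile, on the 12 having arrays; red circles are cyfluthrin arrays and blue squares control arrays. In each panel the points rise together, with r of 0.953 to 0.964.

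Of all 7927 other contigs, 4 (0.0505%) had r above 0.9 with contig_766 over the having arrays and 0 (0%) had r below -0.9, with a median r of -0.12. They were the 3 followers and contig_7677, which was named after its value was seen (r = 0.940). Its log2 signal ran only from -1.17 to -0.64 over the having arrays and from -1.41 to -1.05 over the lacking arrays, so the ranges overlapped, and its slope on contig_766 was 0.16.

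Over all 16 arrays the 2 contigs with the highest correlation with contig_766 were contig_7110 (r = 0.997) and contig_3621 (r = 0.985). The 2 with the lowest were contig_4019 (r = -0.784) and contig_5751 (r = -0.705). The log2 signal of contig_4019 was -0.15 to 0.40 on the lacking arrays and -0.79 to 0.04 on the having arrays, and the classes overlapped. For contig_5751 it was -1.84 to -1.48 and -2.16 to -1.66 in the same order, again with overlap.

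Among the arrays that had the signal, the mean of each of the 4 contigs was lower with cyfluthrin, and the treatments overlapped. These values are a description, since the arrays were chosen by contig_766. The log2 signal of contig_766 was 1.21 ± 0.94 with cyfluthrin and 2.35 ± 1.07 in control (SD, n = 6 each). For contig_1262 it was 0.49 ± 0.79 with cyfluthrin and 1.47 ± 0.91 in control (SD, n = 6 each). The difference was -1.13 for contig_7110 and -0.63 for contig_3621. For each contig 5 of the 6 cyfluthrin arrays lay below the median of the control arrays.

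The array-wide measures of the classes overlapped. The processed signal had a 75th percentile of 666 ± 99.9 on the lacking arrays and 611 ± 97.2 on the having arrays (SD, n = 4 and 12). The share of spots well above background was 86.5% ± 4.13 on the lacking and 87.5% ± 4.34 on the having arrays. Of 5 such measures none differed between the classes beyond the spread between arrays. Exact permutation (two-sided, over 1820 choices of 4 arrays) gave p = 0.258 to 0.998, adjusted p = 0.564 to 0.998. The class rule itself used the 75th percentile, and the 10th percentile and the spike-in level were read relative to it. These measures are thus not independent of the rule. With only 4 lacking arrays a modest difference could be missed, so the tests do not show the classes to be alike. On the grid of 192 rows and 82 columns, the spots of contig_766 lay at row 86, column 32 and at row 127, column 41. The first was 4 rows from the spot of contig_7110 (row 82, column 34), and the second 4 rows from a spot of contig_3621 (row 131, column 42). The other spot of contig_3621 lay at row 101, column 69, and those of contig_1262 at row 63, column 74 and at row 93, column 18. The part of position in the pattern was not tested.

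The arrays of a class were little more alike than those of different classes. Over the tested contigs, the mean correlation of log2 signals was 0.950 among the 6 lacking pairs (0.935 to 0.973), 0.944 over the 48 pairs of a lacking and a having array (0.896 to 0.984), and 0.947 among the 66 having pairs (0.913 to 0.981). Contigs are not independent replicates. Class held 10.5% of the variance between arrays, treatment 12.7%, row 4.89% and slide 3.66%, given here as descriptions with no test. Any split of the arrays holds some share by construction.

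The response to cyfluthrin was compared once more with the class as a covariate, a comparison whose groups come from the labels. With cyfluthrin 269 of 7928 contigs rose (3.39%) and 258 fell (3.25%; limma, adjusted p under 0.05), against 281 (3.54%) and 268 (3.38%) with no class in the model. These counts moved with the processing: 46 rose and 120 fell with spike-in scaling, 80 and 83 with normexp, 147 and 146 when scaled to the median, and 151 and 137 with the replicate block. Of the 527 contigs called with the class, 512 were also called without it and in the same direction. The classes were balanced over the treatments, so each log2 change with cyfluthrin is the same in both models. The shared direction was thus fixed by the design, and only the error of a change could differ. The 2 greatest rises were those of contig_2303 (log2 change 3.88, SE 0.30, limma adjusted p = 5.2e-07) and contig_4609 (3.73, SE 0.24, limma adjusted p = 1.2e-07), higher on 8 of 8 cyfluthrin arrays than on any control array.

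The 2 greatest falls with the class in the model were those of contig_2561 (log2 change -2.62, SE 0.12, limma adjusted p = 4.7e-09) and contig_3407 (-2.60, SE 0.62, limma adjusted p = 0.0195; 0.0695 with the replicate number as a block, which ends the call). The size for contig_3407 rests on cyfluthrin replicate 4, an array that has contig_766, where it read -5.40; without that array the log2 change was -1.98. Over all 16 arrays the classes overlapped for each contig named here for its response to cyfluthrin. Within each treatment, however, contig_2561 was lower on both lacking arrays than on any having array. In control it read 2.18 and 2.33 against 2.71 to 3.29, and with cyfluthrin -0.17 and -0.10 against -0.04 to 0.68. Its log2 difference between lacking and having arrays was -0.54 (SE 0.14). The other contigs did not separate the classes within both treatments. On the 12 having arrays alone, 147 contigs rose and 142 fell with cyfluthrin. None of contig_7110, contig_1262 and contig_3621 passed the threshold for cyfluthrin over the 16 arrays (limma adjusted p = 0.0724 to 0.609).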

How the data were processed

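One Agilent scanner file was deposited for each array. Its processed signal is a spot intensity after background subtraction and detrending within the array, with no scaling to other arrays, per the file headers. The file headers name Feature Extraction 10.7.1.1, whereas version 9.1 stands in the submitters' processing notes. A table of log2 values was deposited too; it matched quantile-normalized log2 processed signals with each probe's median set to 0 (r over 0.99 per array), and no source used here states its steps.

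Each array held 15208 contig spots for 8507 contigs. Log2 processed signals were taken minus log2 of the array's 75th percentile over these spots, spots marked as outliers were set aside, and a contig's spots were averaged. Contigs with at least 50% of spots flagged as above background on 4 or more arrays were tested (7928, contig_766 included); 579 were not. The minimum of 4 is the size of the smaller class. The fit was limma 3.58.1 in R 4.3.3 (lmFit, eBayes, Benjamini-Hochberg over all tested contigs), and single values used exact permutation in scipy 1.17.1. The number of arrays limits the precision.

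The classes, contigs and lists were chosen with earlier results of these data known. Contigs were named as the 2 with the greatest class difference in each direction past the threshold, the 2 widest gaps, the 2 highest and 2 lowest correlations with contig_766, and the 2 greatest changes each way with cyfluthrin; others are said to have been named after their values were seen. Slides and rows came from the file headers. Control arrays 1 to 4 and cyfluthrin arrays 1 to 4 shared slide 1, the rest slide 2. Alternatives covered normalization, normexp background correction of the median signals, the authors' values, filters, outlier spots, blocks for slide, row and replicate number, variance models, array weights, thresholds and each array left out. Scaling to 5 spike-in probes, fits within each treatment and the interaction without cyfluthrin replicate 1 were added after seeing the data.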

Additional observations from a re-analysis of the deposited data

Results flagged for a closer look

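Arrays far from the rest of their class or treatment were sought with Dixon's 95% critical value. It picked 5 of 46 sets of values, where chance gives about 1 in 20. Cyfluthrin replicate 1 accounts for 3 of them. Its spike-in level, 1.90 log2 units above the 75th percentile, was the highest of the lacking arrays, the other 3 lying between 0.94 and 1.06. Its log2 signal of contig_5662, -1.69, was the lowest of the lacking arrays, with the others between -1.22 and -1.13, and the lowest of the cyfluthrin arrays, with the other 7 between -1.13 and -0.73. For contig_3407 cyfluthrin replicate 4 read -5.40 while values of -1.09 to 0.23 were found on the remaining 7 with cyfluthrin. The spike-in level of control replicate 3 was 0.17, against 0.94 to 1.16 on the other 7 control arrays.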

How the results depend on the processing

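The counts of contigs lower (3) and higher (0) on the lacking arrays were 2 to 4 and 0 in 20 of 21 other settings; with array weights 1 contig, contig_4554, was higher (log2 0.63). Leaving out each array gave 3 to 4 and 0. The difference of contig_766 was -5.09 with normexp, against -8.26. Among control arrays alone, and within row 1, contig_3621 did not pass. All-or-none contigs numbered 2, and 0 with normexp, which here used median signals and an offset of 50 and left gaps of 2.99, 2.39 and 1.59 for contig_7110, contig_1262 and contig_3621 (3.14 for contig_766). They numbered 6 with any gap, 1 by the bounds -4 and -1, 1 by background flags, and 2 to 3 leaving out each array (3 without control replicate 8); 0 followed the opposite pattern throughout. Contigs whose class difference depended on treatment were 0 in 8 settings, and 4 without cyfluthrin replicate 1, which leaves 1 lacking cyfluthrin array (contig_2082, contig_2155, contig_4601 and contig_5851). With cyfluthrin 269 rose and 258 fell, against 147 and 146 scaled to the median, 80 and 83 with normexp, 46 and 120 with spike-in scaling, 459 and 391 with array weights, 466 and 442 at adjusted p under 0.1, 109 and 96 at 0.01, and 147 and 142 on the 12 having arrays. With the replicate block 151 rose and 137 fell, and 3 contigs were lower and 0 higher on the lacking arrays. Same-numbered arrays share slide and column, and their deviations correlated from -0.256 to 0.437, with a mean of 0.082. Whether the numbers pair samples was not tested. Leaving out each array gave 188 to 345 rises and 170 to 333 falls, the lowest falls without cyfluthrin replicate 7. Settings with fewer arrays or other thresholds differ by construction; for the others, normexp included, the cause was not tested. Signal over background limits how low a lacking array can be read.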
